A study of Mus musculus with 3 samples.

Results

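The expression of 10 mesenchymal transition genes was examined in single cardiac endothelial cells and in the cells sorted with them. They were taken as a list of names, namely the transcription factors *Snai1*, *Snai2*, *Twist1*, *Twist2*, *Zeb1* and *Zeb2*, and the effector genes *Acta2*, *Tagln*, *Vim* and *Fn1*. All 10 had a row in the count table, among 27,994 genes after equal names had been summed. Endothelial cells of adult hearts were sorted from mice that carry GFP as GFP+CD31+VE-Cad+ cells that lacked PDGFRA, PDGFRB, CD41 and CD45, and the methods give female donors 12 to 16 weeks old. They were taken fresh (0 h) or from co-aggregates with E11.5 Mesp1der PSCs, which are PDGFRA+ stromal cells sorted from the aorta–gonad–mesonephros region of Mesp1–DsRed embryos. Co-aggregates were kept for 24, 48, 72 or 96 h in medium with IL-3, SCF and Flt3L, and GFP+CD31+VE-Cad+PDGFRA- cells were sorted again. All time points were pooled before sequencing, and 3 such pools were made. GFP marks cells of the adult donor of any type, so the second sort rests on CD31, VE-Cad and PDGFRA for cell type, and it used neither CD41, CD45 nor PDGFRB.

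Endothelial-to-mesenchymal transition is the process by which an endothelial cell gives up junctions such as VE-cadherin and takes on a contractile, matrix-producing state. It forms the cushions of the heart valves in the embryo and accompanies fibrosis in the adult heart. SNAI, TWIST and ZEB factors bind short E-box sequences and repress junction genes, TGF-β and BMP ligands act upstream through receptors and SMAD proteins, and smooth muscle actin (*Acta2*) and transgelin (*Tagln*) are common readouts of the contractile state. Vimentin (*Vim*), an intermediate filament, and fibronectin (*Fn1*), a matrix glycoprotein, are also used as readouts, although endothelial cells are known to make both.

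The table holds 9,562 cells in 7 clusters, numbered 0 to 6 by the authors. Barcodes carry 1 of 3 library suffixes with medians of 23,651, 13,440.5 and 38,312 UMIs per cell, and 13 barcodes occur in more than 1 library. Neither a pool nor a time point is given per cell, so all cells were treated as 1 sample and no test was run. Levels are UMIs (molecules counted once) per 10,000 UMIs of a cluster, and a value by suffix refers to 1 library of unknown pool. Intervals are at the 95% level (exact Poisson for levels, Clopper–Pearson for shares and exact conditional binomial for ratios) and cover counting error only. Since the authors built the clusters on these very counts, differences between clusters are descriptions.

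A summed list of 8 endothelial markers that included *Cdh5*, *Pecam1* and *Kdr* reached 52.6, 53.4 and 38.3 UMIs per 10,000 in clusters 0, 1 and 2 (728, 799 and 5,396 cells), against 4.26 to 6.55 in the other 4 clusters. A list of 8 stromal markers, among them *Col1a1* and *Pdgfra*, reached 20.8 in cluster 4 (518 cells) and 0.0722 to 2.69 elsewhere. Cluster 4 is therefore called stromal-like here, and clusters 0, 1 and 2 endothelial. Cluster 4 was mixed in its markers. Of all clusters it was also highest on the epithelial (3.63), cardiomyocyte (3.31), pericyte (2.55), smooth muscle (1.51) and mesothelial (0.794) lists. The endothelial clusters differed in how clean they were of other lists. In cluster 1 the stromal list stood at 2.69, mostly from decorin (*Dcn*, 2.35), with the pericyte list at 1.25 and the macrophage list at 1.83, whereas cluster 0 had 0.312, 0.335 and 0.0755 on these lists and cluster 2 had 0.165, 0.333 and 0.0725. On an epithelial list, however, cluster 0 stood highest of the 3, at 0.454 against 0.0369 and 0.0265 in clusters 1 and 2. The megakaryocyte list was 1.92 in cluster 1 against 0.261 and 0.231 in clusters 0 and 2. Depth also differed, with medians of 14,061, 7,875, 22,493 and 19,475.5 UMIs per cell in clusters 0, 1, 2 and 4. Cluster 3 (239 cells) had the germ or pluripotency genes at 39.3, cluster 5 (1,572 cells) the macrophage list at 11.7 and cluster 6 (310 cells) the megakaryocyte list at 195.4. Clusters 3 and 5, whose leading lists are those of cells not known for contractile genes, served as a low reference. Free RNA itself was not measured.

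Proximal promoters were read from RefSeq (GRCm38.p6) for *Acta2* and *Snai1*, since the first gene separated cluster 0 from cluster 2 and the other had the opposite order. The 250 bases before each transcription start were searched on both strands for CACCTG, an E-box bound by SNAI, TWIST and ZEB factors, and for the CArG box, bound by serum response factor at contractile genes. The window of *Acta2* (chr19:34255374-34255623, minus strand) held 2 CArG-like matches with 1 G or C among the central bases, shown in capitals, which begin 84 and 34 bases before the start. GENCODE places the start of *Acta2* at 34255590, inside this window, so these distances hold for the RefSeq start only. The window of *Snai1* (chr2:167537945-167538194, plus strand) held 1 CACCTG, in capitals, 126 bases before the start.
Acta2: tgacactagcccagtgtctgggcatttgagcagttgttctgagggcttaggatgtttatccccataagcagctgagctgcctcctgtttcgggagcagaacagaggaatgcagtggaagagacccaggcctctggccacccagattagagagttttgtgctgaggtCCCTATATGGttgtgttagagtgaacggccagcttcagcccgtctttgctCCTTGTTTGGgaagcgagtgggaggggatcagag
Snai1: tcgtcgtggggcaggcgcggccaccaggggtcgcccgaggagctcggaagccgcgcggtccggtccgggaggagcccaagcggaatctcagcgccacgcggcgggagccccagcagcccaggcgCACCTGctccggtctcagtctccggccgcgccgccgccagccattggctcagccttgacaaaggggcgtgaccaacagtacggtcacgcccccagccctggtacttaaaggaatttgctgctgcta
The relaxed CArG form was chosen after the strict form had been found in none of the 9 windows of the 6 members that the table held (*Acta2*, *Snai1*, *Twist1*, *Twist2*, *Vim* and *Zeb2*). Of all 32,851 windows, 1.47% held the strict form, 8.59% the relaxed form and 17.2% CACCTG. Among the members' windows only that of *Acta2* held the relaxed form and only that of *Snai1* held CACCTG. A match describes the letters in this window and does not show that a factor binds there.

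*Snai1* (ENSMUSG00000042821; chr2:167538195-167542814), a zinc-finger repressor of cadherin genes, was highest in the stromal-like cluster and second highest in cluster 2. In cluster 4 its level was 0.405 UMIs per 10,000 (0.370–0.443), with 0.334, 0.327 and 0.534 in the libraries of suffix 1, 2 and 3. In cluster 2 it was 0.266 (0.257–0.275), with 0.263, 0.268 and 0.267. In cluster 1 it was 0.184 (0.156–0.216), with 0.175, 0.183 and 0.199. Cluster 0 stood lowest of the endothelial clusters at 0.0763 (0.0618–0.0931), with 0.0586, 0.0966 and 0.0765. The libraries of these 4 clusters did not overlap, and every one of them lay above those of clusters 3, 5 and 6 (0.0144 to 0.0332), which overlapped one another. *Snai2* (ENSMUSG00000022676), its paralog, was again highest in cluster 4, at 0.293 (0.263–0.326), and reached 0.0773 and 0.0779 in clusters 1 and 2, whose libraries overlapped. In cluster 0 the *Snai2* level was 0.0310 (0.0220–0.0424), and its libraries, at 0.0293, 0.0157 and 0.0463, overlapped those of clusters 3 and 6. Of the endothelial cells, those of cluster 0 thus had the least of both *Snai* genes.

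*Twist1* (ENSMUSG00000035799; chr12:33957671-33959829), a basic helix–loop–helix factor of the embryonic mesenchyme, marked cluster 4. Its level there was 2.10 UMIs per 10,000 (2.02–2.19), with 1.75, 2.40 and 2.28 in the 3 libraries. The next levels were 0.209 for cluster 6 and 0.144 for cluster 0 (0.124–0.166), with libraries that overlapped (0.174 to 0.283 and 0.123 to 0.183). Clusters 1 and 2 had 0.0357 and 0.0448, within the range of cluster 3 (0.0274 to 0.0555 over its libraries). *Twist1* was therefore the only *Snai* or *Twist* gene that was higher in cluster 0 than in the other endothelial clusters, and it still stood at 6.84% of its level in cluster 4. *Twist2* (ENSMUSG00000007805) had 499 UMIs in cluster 4, or 0.422 per 10,000, and 3, 2 and 66 UMIs in clusters 0, 1 and 2, or 0.00238, 0.00238 and 0.00470 per 10,000. All 3 UMIs of cluster 0 came from the library of suffix 2. Outside cluster 4 every *Twist2* library lay at or below 0.0156. The libraries of cluster 2 (0.00404 to 0.00575) overlapped those of clusters 0, 3 and 6 and lay above those of clusters 1 and 5 (0 to 0.00376 and 0.000691 to 0.000932).

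The ZEB genes had another order. *Zeb1* (ENSMUSG00000024238), a repressor of epithelial genes, was highest in cluster 1 at 1.79 UMIs per 10,000 (1.70–1.88), with 1.53, 2.18 and 1.88 in the libraries, and stood at 1.07, 0.792 and 0.637 in clusters 2, 0 and 4. The libraries of cluster 0 (0.714 to 0.955) overlapped those of clusters 2 (0.939 to 1.25) and 4 (0.573 to 0.833). *Zeb1* was thus an endothelial as well as a stromal transcript here, with 0.140 to 0.306 in clusters 3, 5 and 6. *Zeb2* (ENSMUSG00000026872), which is also known in blood cells, was highest in cluster 6 at 3.11 and in cluster 5 at 1.82. Cluster 0 came next at 1.29 (1.23–1.36), and its libraries (1.04 to 1.61) overlapped those of cluster 4 (1.01 to 1.27). Clusters 1 and 2 had 0.629 and 0.460, again with overlapping libraries.

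*Acta2* (ENSMUSG00000035783; chr19:34241090-34255590), the smooth muscle actin, was highest in cluster 4 and second highest in cluster 0. The level in cluster 4 was 7.03 UMIs per 10,000 (6.88–7.19), with 5.49, 7.76 and 8.19 in the libraries of suffix 1, 2 and 3. In cluster 0 it was 1.49 (1.42–1.56), with 1.44, 1.65 and 1.41. Cluster 1 had 0.445 (0.401–0.492), with 0.136, 0.662 and 0.744, and cluster 2 had 0.0252 (0.0226–0.0280), with 0.0285, 0.0421 and 0.00726. The libraries of clusters 4, 0 and 1 did not overlap, and those of cluster 2 lay below those of cluster 5 (0.130 to 0.174). *Tagln* (ENSMUSG00000032085; chr9:45929619-45936058), an actin-binding protein of smooth muscle, followed the same order at the top, with 5.91 in cluster 4 (5.77–6.05) and 1.42 in cluster 0 (1.36–1.49). Its 3 libraries in cluster 0 were close, at 1.49, 1.42 and 1.36. In cluster 1 the *Tagln* level was 0.308, with 0.0360, 0.382 and 0.654 in the libraries, so that the lowest of them lay within the range of cluster 2 (0.0268 to 0.0685). The contractile pair was therefore steady over libraries in cluster 0 and uneven in cluster 1: without the library of suffix 1 the levels in cluster 1 were 0.710 for *Acta2* and 0.542 for *Tagln*, and without that of suffix 3 they were 0.306 and 0.148.

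*Vim* (ENSMUSG00000026728) and *Fn1* (ENSMUSG00000026193) were highest in endothelial clusters and not in cluster 4, which was second highest for *Fn1*. *Vim* stood at 34.1 and 33.8 UMIs per 10,000 in clusters 0 and 1, with overlapping libraries (30.1 to 36.0 and 32.6 to 35.8), and at 27.3 in cluster 2 (26.6 to 27.7). The stromal-like cluster had 16.0, with 16.8, 14.7 and 16.1 in the libraries, and the remaining clusters had 2.82 to 7.75. *Fn1* singled out cluster 0. Its level there was 10.3 (10.2–10.5), with 9.11, 12.2 and 9.95 in the libraries, against 2.97 in cluster 4, with 2.95, 3.14 and 2.88. Clusters 1, 2 and 3 had 1.23, 1.23 and 1.2 with overlapping libraries, and clusters 5 and 6 had 0.585 and 0.201. *Tagln*, *Twist2*, *Zeb1*, *Zeb2* and *Fn1* overlap other annotated genes, such as *Pcsk7* on the strand opposite to *Tagln*, and the strand setting of the counting is not given in the sources used here, so transcripts of such neighbours cannot be told apart.

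**Figure D1:**
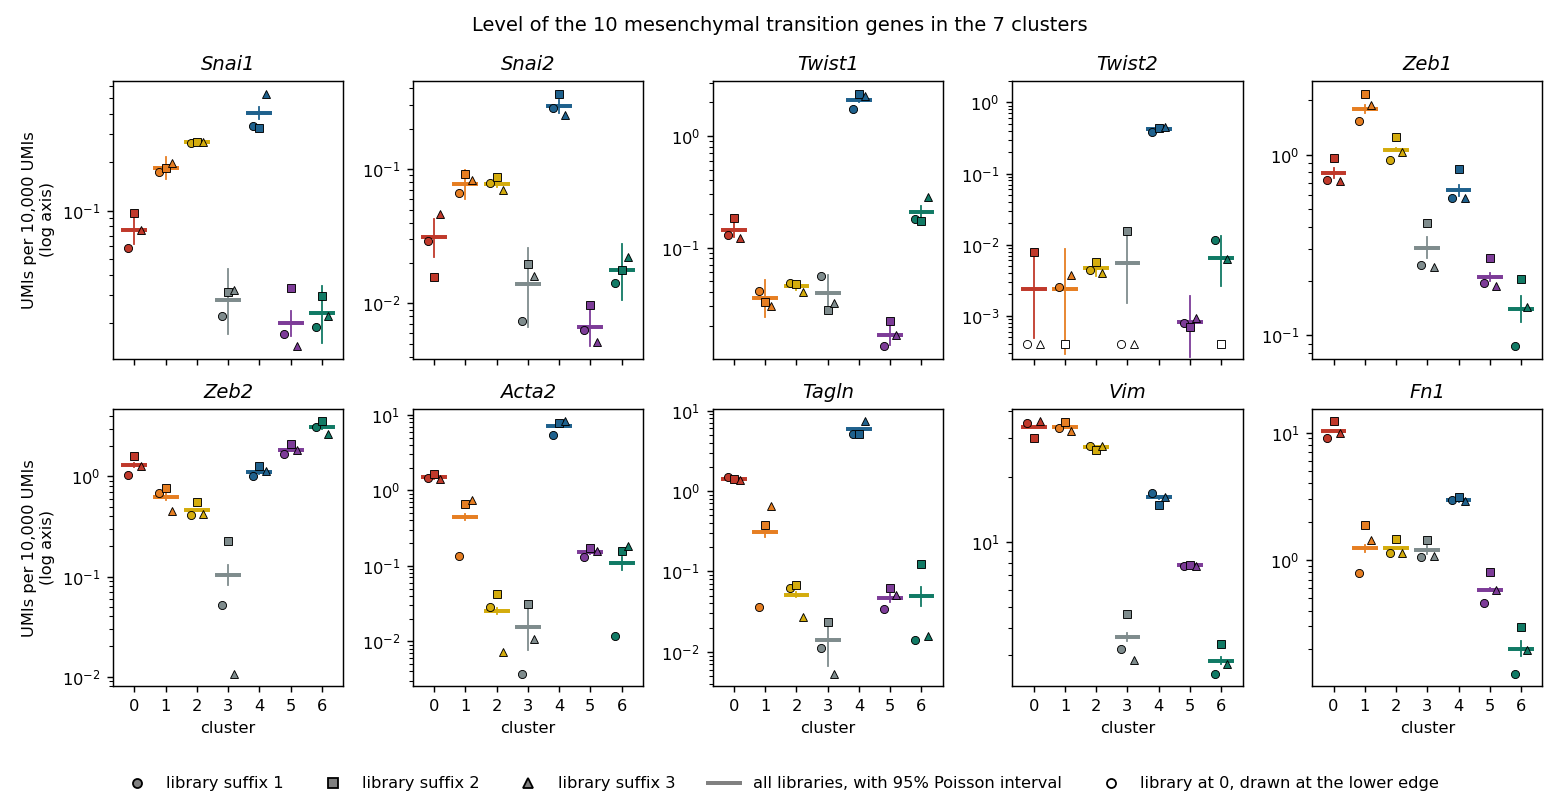
Level of each of the 10 genes (y axis, UMIs per 10,000 UMIs, log scale with a range of its own in each panel) in clusters 0 to 6 (x axis). Horizontal lines give all libraries together with the 95% Poisson interval, filled symbols the 3 libraries, and white symbols a library at 0. *Twist1*, *Twist2*, *Acta2* and *Tagln* are highest in cluster 4, where *Acta2* reaches 7.03, and *Fn1* is highest in cluster 0 at 10.3.

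To see how far each endothelial cluster resembled the stromal-like cluster, members past a 2-fold ratio to cluster 4 that lay on the same side in each library were counted. They were read beside the same count over the 10,438 genes with a mean level of at least 0.05 UMIs per 10,000 over the 7 clusters. All 10 members met this minimum, but *Twist2* and *Snai2* did so only through cluster 4, and had means of 0.00373 and 0.0374 over the other 6 clusters. Both had to lie below cluster 4 and are therefore left out of the second count of each comparison, for which the minimum was taken over the 6 clusters other than cluster 4 (10,229 genes). This second count was added after the values had been seen.
Against cluster 4, cluster 0 had 2 members higher, *Vim* and *Fn1*, and 6 lower, where 10.4% of all genes were higher and 9.47% lower. Of the 8 members in the second count the same 2 were higher and 4 were lower (*Snai1*, *Twist1*, *Acta2* and *Tagln*), against 10.7% and 7.73% of all genes. The median log2 ratio was −0.92 over these 8 members and −0.08 over all genes, whereas it was −2.15 with all 10 members. Cluster 1 had 2 members higher (*Zeb1* and *Vim*) and 7 lower, against 18.3% and 17.1% of all genes. Of the 8 members 2 were higher and 5 lower (*Snai1*, *Twist1*, *Acta2*, *Tagln* and *Fn1*), against 18.9% and 15.4%, with medians of −1.20 and −0.06. Cluster 2 had no member higher and 7 lower, against 6.64% and 12.3% of all genes. Of the 8 members 5 were lower (*Twist1*, *Zeb2*, *Acta2*, *Tagln* and *Fn1*), against 6.87% of all genes higher and 10.5% lower, with medians of −1.28 and −0.13. In each endothelial cluster the lower ones among the 8 members thus included *Twist1*, *Acta2* and *Tagln*.

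The size of the gap differed by gene and by cluster. For *Acta2* the log2 ratio to cluster 4 in clusters 0, 1 and 2 was −2.24 (−2.31 to −2.16), −3.98 (−4.14 to −3.83) and −8.13 (−8.28 to −7.97). For *Tagln* it was −2.06, −4.26 and −6.84. The library of suffix 3 had the lowest *Acta2* ratio in cluster 2, and without it the value was −7.51. The distance of *Tagln* in cluster 1 also rested on the libraries, with −3.57 without suffix 1 and −5.11 without suffix 3. *Twist1* lay at −3.87, −5.88 and −5.55 and *Twist2* at −7.47 (−9.75 to −5.91), −7.47 (−10.52 to −5.61) and −6.49 (−6.88 to −6.12), the first of which moved to −6.79 without the library of suffix 3. For *Snai1* the order was turned round, with −2.41, −1.14 and −0.61. The endothelial cluster with the most contractile transcripts was therefore the farthest from cluster 4 in *Snai1*. As a share of cluster 4, cluster 0 reached 21.2% for *Acta2* (17.2–26.3% over libraries) and 24.0% for *Tagln* (18.5–29.1%), while its stromal list reached 1.5% (1.30–1.8%). The stromal list is the one by which cluster 4 was named. Cluster 0 had the smooth muscle list at 0.584 against 1.51 in cluster 4, and the pericyte list at 0.335 against 2.55. Its epithelial list stood at 0.454 against 3.63, its cardiomyocyte list at 0.146 against 3.31 and its mesothelial list at 0.00477 against 0.794.

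**Figure D2:**
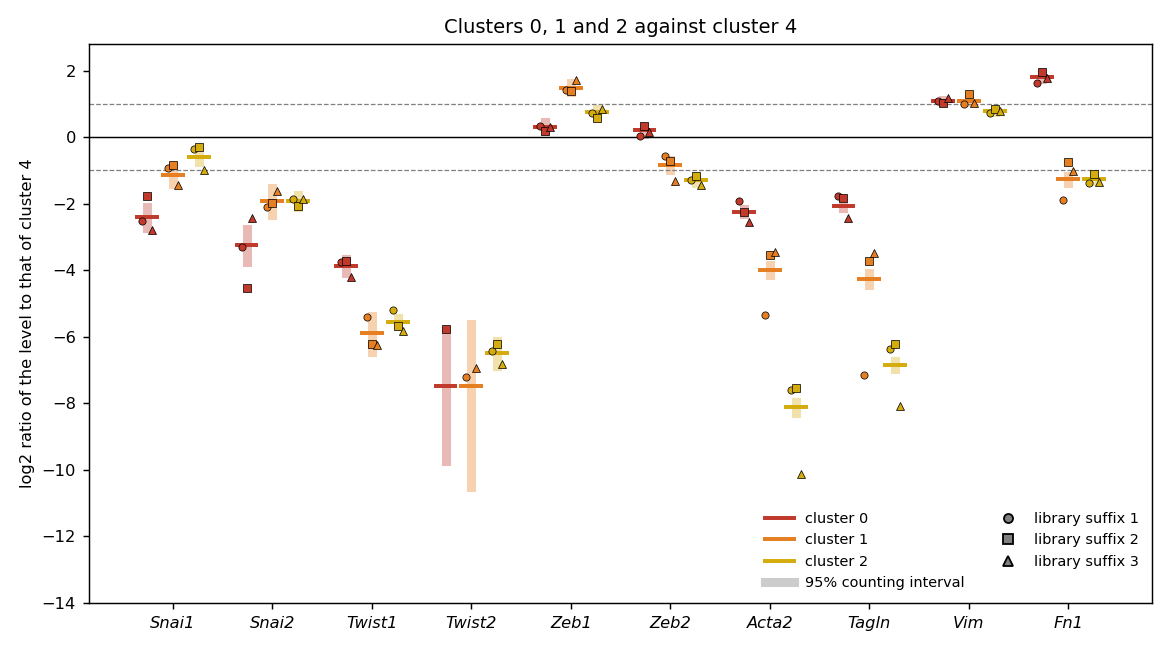
Log2 ratio of the level in clusters 0, 1 and 2 to that in cluster 4 (y axis) for each gene (x axis). Lines give all libraries, shaded bars the 95% counting interval, symbols the libraries in which both levels were above 0, and dashed lines 2-fold. *Acta2* lies at −2.24, −3.98 and −8.13 in clusters 0, 1 and 2, and *Fn1* lies above 0 in cluster 0.

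Among the endothelial clusters themselves, cluster 0 stood apart from cluster 2 in 7 of the 10 members. *Twist1*, *Zeb2*, *Acta2*, *Tagln* and *Fn1* were past 2-fold higher in cluster 0 and *Snai1* and *Snai2* past 2-fold lower, where 9.7% of all genes were higher and 3.13% lower. The largest of these log2 ratios was 5.89 for *Acta2* (5.72 to 6.06), followed by 4.79 for *Tagln* and 3.07 for *Fn1*. *Snai1* lay at −1.80 and *Snai2* at −1.33, and without the library of suffix 2 the *Snai2* ratio was −0.97 and no longer past 2-fold. Against cluster 1, cluster 0 was higher in the same 5 genes and lower in *Snai1*, *Snai2* and *Zeb1*, where 12.1% of all genes were higher and 12.6% lower. The *Acta2* and *Tagln* ratios of 1.75 and 2.21 rested partly on the library of suffix 1, without which they were 1.10 and 1.35, and the *Tagln* ratio was 3.30 without suffix 3. In the same comparison *Zeb2* (1.04) was at 0.97 without suffix 2 and at 0.88 without suffix 3, and *Snai2* (−1.32) was at −0.96 without suffix 2.
Clusters 1 and 2 differed least. *Acta2* alone was past 2-fold higher in cluster 1 in each library, with a log2 ratio of 4.14, and no member was lower, where 18.2% of all genes were higher and 11.2% lower. *Tagln* had a ratio of 2.58 there but lay at −0.78 in the library of suffix 1, and *Fn1* differed by 0.00 (−0.09 to 0.09).

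Detection depends on the depth of a cell, so shares of cells were taken after each cell had been thinned to 5,000 UMIs, which left out 90 cells. At this depth 18.7% of the cells in cluster 0 had an *Acta2* UMI (135 of 722, 15.9–21.7%) and 21.7% a *Tagln* UMI (18.8–24.9%). In cluster 4 the shares were 21.1% (17.6–24.9%) and 27.1% (23.3–31.2%). The intervals of both clusters overlapped for each gene, although the levels were 4.71-fold and 4.16-fold apart, so that the difference lay in the number of molecules per cell more than in the share of cells. In cells as deposited the *Acta2* shares were 30.1% and 29.2%. Clusters 1 and 2 had *Acta2* in 3.62% and 1.32% of their cells, against 4.34% and 0.837% for clusters 5 and 3, so the shares alone did not set clusters 1 and 2 above a cluster led by macrophage genes. In cluster 1 the few positive cells were rich in *Acta2*, with a maximum of 103 counts per 10,000, and the level of 0.445 was above the 0.151 of cluster 5, whereas the level of 0.0252 in cluster 2 was below it. The library of suffix 1 in cluster 1, at 0.136, lay within the range of cluster 5 over its libraries (0.130 to 0.174). The *Acta2* share in cluster 2 was 0.735% without the library of suffix 2, and the *Tagln* share in cluster 1, 3.62%, was 5.91% without that of suffix 1.
The *Snai1* share was 12% for cluster 2 (11.2–12.9%) and 15.2% for cluster 4 (12.2–18.6%), against 3.46% and 6.85% for clusters 0 and 1 and 1.53% to 2.93% for clusters 3, 5 and 6. The *Twist1* share was 40.2% for cluster 4 and 6.79% for cluster 0 (5.06–8.87%), above the 1.74% and 1.71% of clusters 1 and 2 and the 1.40% of cluster 5, and close to the 7.77% of cluster 6. *Twist2* reached 16.6% of cluster 4 and 0.139% to 0.268% of the endothelial clusters, where the 1.53% upper limit of cluster 3, with no positive cell among 239, includes these values. *Vim* was found in 96.0% to 100% of endothelial cells and *Fn1* in 92.9%, 24.4% and 40.8% of clusters 0, 1 and 2. *Acta2* and *Tagln* in cluster 0 were therefore carried by a minority of cells of a cluster in which *Vim* and *Fn1* were nearly general.

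**Figure D3:**
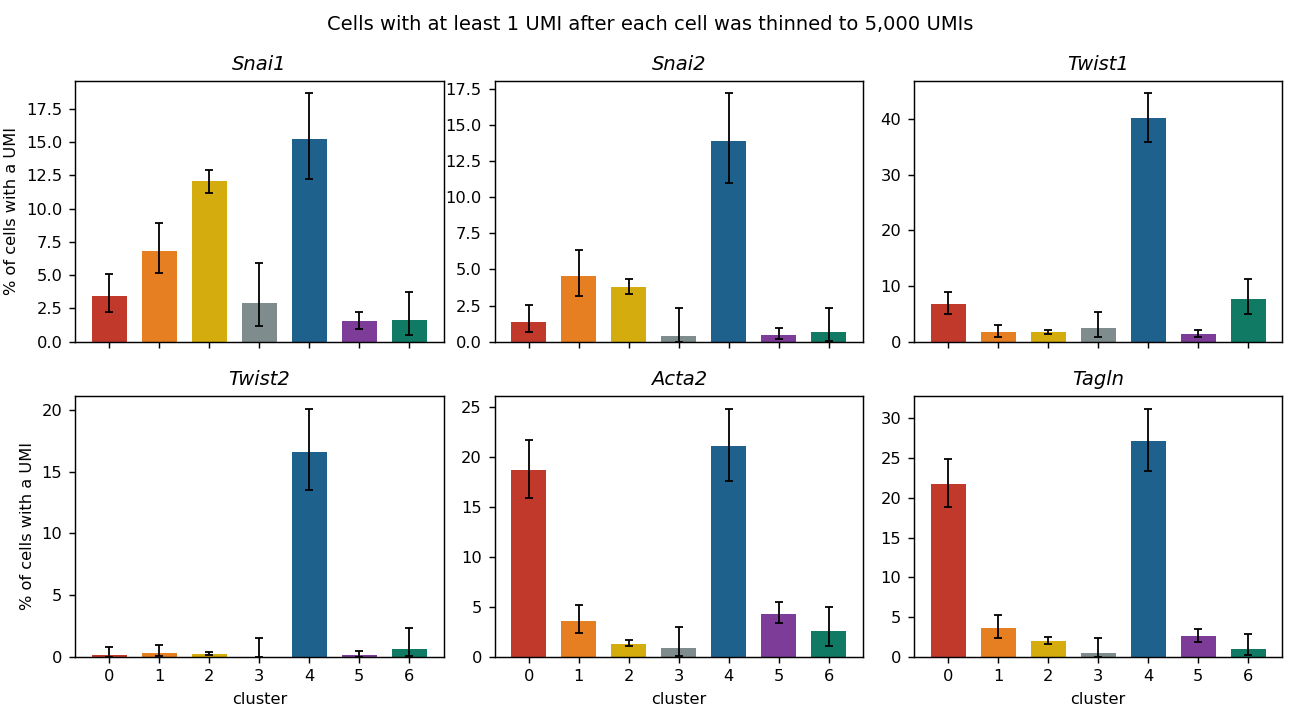
Percentage of cells of clusters 0 to 6 (x axis) with at least 1 UMI of the gene after thinning to 5,000 UMIs per cell (y axis, from 0 and with a range of its own in each panel), with 95% Clopper–Pearson intervals. For *Acta2*, clusters 0 and 4 stand side by side at 18.7% and 21.1%, whereas *Twist1* and *Twist2* are mainly found in cluster 4.

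Transcripts of the contractile pair were unevenly spread over the cells of each cluster. In cluster 0 the 37 cells with the highest *Acta2* values, 5% of the cluster, held 66.5% of its *Acta2* UMIs, the 95th percentile of cells was 8.30 counts per 10,000 and the maximum 61.4. In cluster 4 the top 5% held 78.4%, with a 95th percentile of 38.6 and a maximum of 172.9. In cluster 1 the top 5% held all of them and more than 95% of the cells had none. *Vim* was spread far more evenly, with 17.5% of its UMIs in the top 5% of cells in cluster 0. Within cluster 0, 34 cells reached 10 counts per 10,000 of *Acta2* and 52 did so in cluster 4.
*Acta2* and *Tagln* tended to be found in the same cells. At 5,000 UMIs, cells of cluster 0 with a *Tagln* UMI had an *Acta2* level of 5.44 UMIs per 10,000 (4.94–5.98) and cells without one had 0.453 (0.378–0.539). This log2 ratio of 3.59 was 4.26 without the library of suffix 2. In cluster 1 the values were 13.9 and 0.0808, with a log2 ratio of 7.42, and in cluster 2 they were 0.917 and 0.0239, with a log2 ratio of 5.26 that was 4.27 without the library of suffix 2. Across the cells of a library, Pearson's r of *Acta2* and *Tagln* was 0.44 to 0.69 in cluster 0 and 0.83 to 0.88 in cluster 4, whereas r of *Acta2* and *Vim* was −0.13 to 0.09 in cluster 0 and 0.38 to 0.50 in cluster 4. Cells of a library share its preparation, and these values are given as a description.

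Cells with both contractile transcripts were then compared with the rest of their cluster, with the marker lists beside them. In cluster 0, 73 of 722 cells (10.1%, 8.01–12.5%) had both at 5,000 UMIs, 26, 28 and 19 in the libraries, 146 had 1 of them and 503 had neither. Median depths before thinning were 16,941, 14,061 and 13,807 UMIs in cells with both, 1 and neither. The cells with both had the endothelial list at 50.0 UMIs per 10,000 (47.8–52.4), 52.4 in cells with 1 of them (50.8–54.1) and 57.7 in cells with neither (56.7–58.6), so that it was lower in the contractile cells by more than the counting intervals. The stromal list stood at 0.274 (0.131–0.504) against 0.326, the pericyte list at 0.411 (0.230–0.678) against 0.441 and the smooth muscle list at 0.658 (0.421–0.978) against 0.688. The intervals of these 3 lists held the values of the cells with neither. The pericyte list of cluster 0 was mostly *Notch3*, at 0.268 of 0.335 over the whole cluster, and cluster 4 had *Notch3* at 0.254. That list was not split by gene in the cells with both, so its level says little about the other pericyte genes there. A cardiomyocyte list was higher in the cells with both, at 0.301 (11 UMIs, 0.150–0.539) against 0.115 (29 UMIs, 0.0772–0.166), with intervals that overlapped. The smooth muscle list is mostly smoothelin (*Smtn*), which all endothelial clusters held, at 0.535 in cluster 0. Without *Smtn* it stood at 0.137 in cells with both (5 UMIs, 0.0445–0.320) against 0.0119 in cells with neither (3 UMIs, 0.00246–0.0349), so that these few UMIs of smooth muscle genes were more frequent in the cells with both. The *Fn1* level of the cells with both was 13.8 (12.6–15.1) against 10.8 (10.4–11.2), and *Vim* was 33.1 against 33.0. *Zeb1* stood at 0.712 against 0.839 and *Zeb2* at 1.21 against 1.34, each within the other's interval or overlapping it. There were 4 UMIs of *Twist1*, 2 of *Snai1*, 2 of *Snai2* and none of *Twist2* in these 73 cells, too few to set them apart from the 0.131 and 0.0875 UMIs per 10,000 of *Twist1* and *Snai1* in cells with neither.

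The same class of cells was of another kind in the other clusters. In cluster 1 only 8 of 745 cells had both transcripts (1, 4 and 3 in the libraries), with an *Acta2* level of 46.8 UMIs per 10,000. Their pericyte list stood at 33.0 (27.6–39.1) and their smooth muscle list at 19.0 (15.0–23.8), against 1.02 and 0.672 in cells with neither, while the endothelial list was still 41.3. When the 52 cells of cluster 1 with more than 5 UMIs per 10,000 of the pericyte and smooth muscle genes were left out, the *Acta2* level of the cluster went from 0.445 to 0.0653 and that of *Tagln* from 0.308 to 0.0515. The same step left out 1 cell of cluster 0, whose *Acta2* level was 1.49 as before. This alternative was added after the values had been seen. In cluster 2, 19 of 5,377 cells had both transcripts, 15 of them in the library of suffix 2, at a median depth of 6,119 UMIs against 22,675 in cells with neither. Their stromal list was 5.68 against 0.198 and their pericyte list 2.95 against 0.340. In cluster 4, 85 of 512 cells had both, with the stromal list at 37.4 against 13.6, the endothelial list at 4.33 against 3.72 and a cardiomyocyte list at 15.0 against 0.109. Over the whole cluster the cardiomyocyte list was 3.31, of which cardiac actin (*Actc1*) made up 2.91. That list was not split by gene in the cells with both. *Vim* was 29.6 against 12.2 and *Fn1* 6.45 against 1.83 in these cells, and *Twist1* was 1.46 against 2.18. Whether cells captured together add to these values was not tested.

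**Figure D4:**
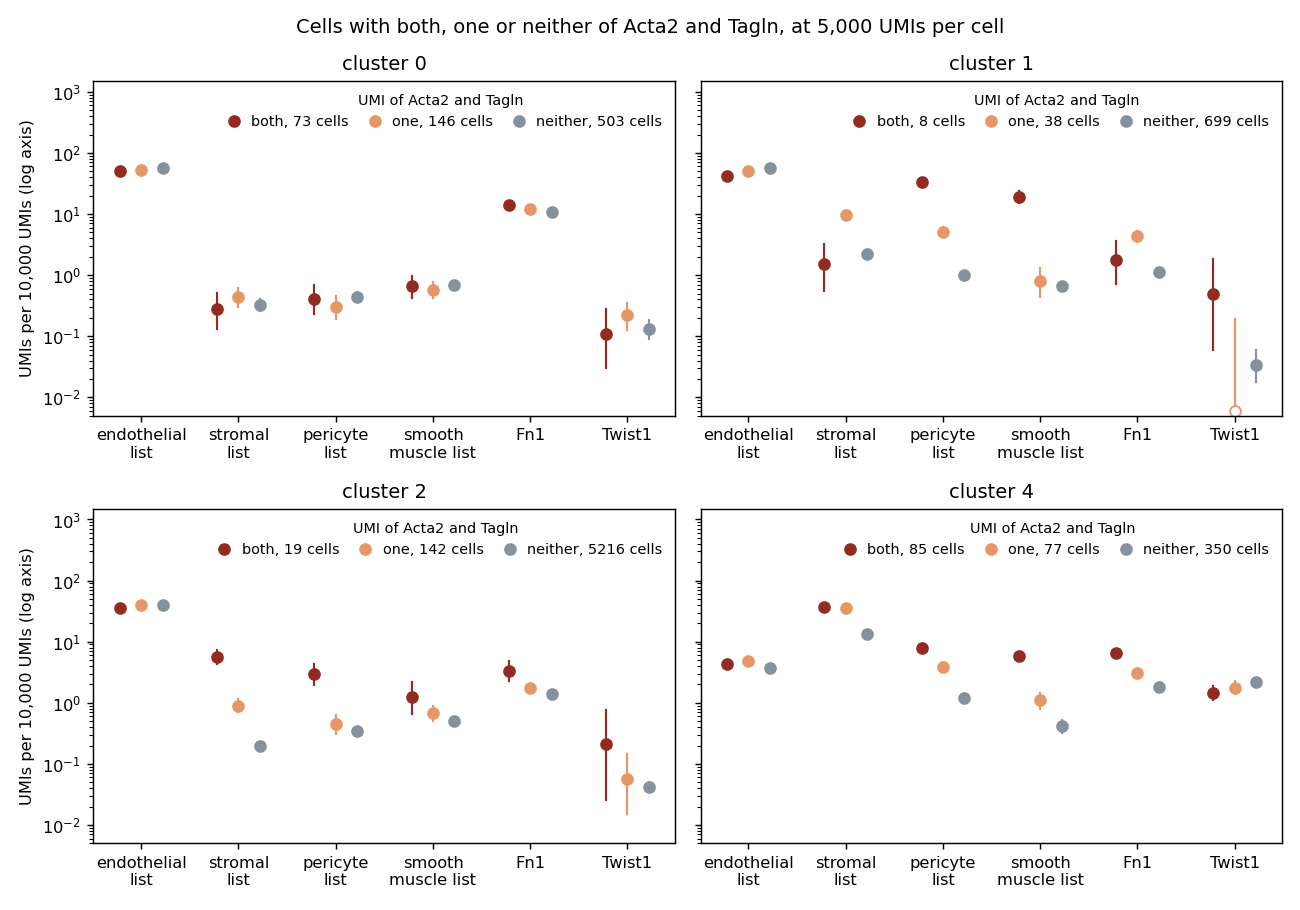
Level (y axis, UMIs per 10,000 UMIs, log scale, with 95% Poisson intervals) of the marker lists, *Fn1* and *Twist1* (x axis) in cells with both, 1 or neither of *Acta2* and *Tagln*, in clusters 0, 1, 2 and 4 at 5,000 UMIs per cell. White symbols mark a count of 0. The cells with both have a pericyte list of 33.0 in cluster 1, whereas in cluster 0 it is 0.411 and close to that of their neighbours. Over the whole of cluster 0 this list is mostly *Notch3*.

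Cells were then counted that held a *Snai* or *Twist* transcript together with a contractile one. At 5,000 UMIs these were 105 of 512 cells of cluster 4 (20.5%, 17.1–24.3%), 26 of 722 cells of cluster 0 (3.60%, 2.37–5.23%), 5 of 745 cells of cluster 1 (0.671%, 0.218–1.56%) and 31 of 5,377 cells of cluster 2 (0.577%, 0.392–0.817%). The share in cluster 0 was 1.81% to 4.41% over the libraries and that in cluster 4 was 18.2% to 24.2%. Without the library of suffix 2 clusters 1 and 2 had 0.353% and 0.367%. In cluster 0 the share of cells with a *Snai* or *Twist* UMI was 11.9% among cells with a contractile transcript (7.90–16.9%) and 11.1% among cells without one (8.52–14.2%), and the library of suffix 1 had the higher share in contractile cells and the other 2 libraries the lower. In cluster 4 these shares were 64.8% (56.9–72.1%) and 54.3% (48.9–59.6%), and in cluster 2 they were 19.3% and 17.1%. In the libraries of cluster 4 the shares were 61.9% and 50.3% (suffix 1), 58.7% and 59.1% (suffix 2) and 80.6% and 54.8% (suffix 3), so that the difference rested on 2 of the 3 libraries.

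Other genes of the pathway, on lists chosen with earlier results of these data known, were counted by the same 2-fold rule. Of 48 genes 37 met the minimum over the 7 clusters, and 12 of them were higher and 16 lower than in cluster 4 for cluster 0 (10.4% and 9.47% of all genes), 11 and 13 for cluster 1 (18.3% and 17.1%), and 5 and 18 for cluster 2 (6.64% and 12.3%). *Cnn1*, *Des*, *Cdh11* and *Prrx1* met it only through cluster 4, and of the other 33 genes 12 were higher and 12 lower for cluster 0, 11 and 9 for cluster 1, and 5 and 14 for cluster 2. *Cdh5*, counted as higher for each of these clusters, is also on the endothelial list by which they were named. Among 7 ligands, *Tgfb1* was higher than in cluster 4 in all 3 endothelial clusters, at 2.0, 3.35 and 2.08 UMIs per 10,000 against 0.487, and *Tgfb2* was lower, at 0.439, 0.162 and 0.348 against 1.31. Of the BMP and activin ligands, *Bmp2* stood at 0.622 in cluster 1 against 0.214 in cluster 4 and at 0.0143 and 0.0707 in clusters 0 and 2. *Bmp4* (0.192 against 0.618) was lower in cluster 0, and *Inhba*, at 0.242 in cluster 4, was lower in clusters 0 and 2, where it stood at 0.000794 and 0.00185.
Of 7 receptor genes, 5, 4 and 3 were higher in clusters 0, 1 and 2, and only *Tgfbr1* was lower, in cluster 1. Endoglin (*Eng*), a co-receptor of endothelial cells, stood at 3.23, 4.90 and 2.02 against 0.317, *Acvrl1*, the endothelial type I receptor, at 1.57, 1.05 and 0.738 against 0.132, and *Tgfbr2* at 0.568, 0.875 and 0.498 against 0.137. *Tgfbr3* was higher in cluster 0 (0.529 against 0.101), and *Bmpr2* was higher in clusters 0 and 1 (1.32 and 1.24 against 0.602). *Smad4*, the SMAD shared by both branches of the pathway, passed 2-fold in none of the endothelial clusters (0.949, 1.06 and 0.824 against 1.12). The inhibitory *Smad6* and *Smad7* were higher in cluster 0, at 1.33 and 2.06 against 0.367 and 0.869, and lower in cluster 2, at 0.0929 and 0.382. Cluster 0 was thus the endothelial cluster with the most *Smad6* and *Smad7*, and also with the most *Acta2*, *Tagln* and *Fn1*. A link between these genes was not tested.

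Genes that respond to TGF-β did not move as a block. *Sparc*, a matrix protein, stood at 23.0 and 26 in clusters 0 and 1 against 9.34 in the stromal-like cluster. *Ccn1* and *Ccn2* were lower in clusters 0 and 2 (*Ccn1* at 0.534 and 0.247 against 1.13), and *Tgfbi* was lower in all 3 (0.0286, 0.584 and 0.214 against 1.46). Of the 8 contractile genes 5 met the minimum over the 7 clusters, *Cnn1* and *Des* only through cluster 4, and the other 3, *Myl9*, *Tpm1* and *Tpm2*, were lower than in cluster 4 in each endothelial cluster. *Myl9*, a myosin light chain, was 0.846, 0.183, 0.0951 and 1.98 in clusters 0, 1, 2 and 4. *Tpm1*, a tropomyosin, was 3.11, 3.11, 1.77 and 8.37, and *Cnn1* (calponin) 0.0286, 0.00476, 0.000640 and 0.370. Against cluster 2, cluster 0 had *Cnn1* and *Myl9* higher and *Des* lower, so that a few contractile genes other than *Acta2* and *Tagln* shared the order of cluster 0 over cluster 2.
Of the cadherins, *Cdh5* (VE-cadherin) stood at 9.30, 9.94 and 4.29 against 0.562 and *Cdh11*, of mesenchymal cells, at 0.0230, 0.139 and 0.0213 against 1.24. *Cdh2* (N-cadherin) was 0.594, 0.185 and 1.09 against 1.14 and passed 2-fold only in cluster 1. The other transcription factors included *Klf4*, higher in clusters 0 and 1 (0.633 and 2.43 against 0.294), *Mrtfb*, higher in the same clusters (0.493 and 0.458 against 0.210), *Prrx1*, a fibroblast factor, lower in all 3 (0.0421, 0.0202 and 0.00733 against 1.24), and *Foxc2*, which was lower in clusters 1 and 2 and stood at 0.718 in cluster 0 against 0.366. *Esrp1*, a splicing factor of epithelial cells, was lower in all 3 (0.000712 to 0.00159 against 0.0811). *Eng* and *Acvrl1* thus stood above cluster 4 in all 3 endothelial clusters, among them cluster 0 with its contractile pair. *Cdh5* did so too, but it is on the endothelial list by which these clusters were named.

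The genes whose pattern was nearest to each member were found by Pearson's r of log2(level + 0.1) over 21 points (7 clusters in 3 libraries, which share cells of a library and cluster) among 8,771 genes. *Acta2* and *Tagln* were nearest to each other (r = 0.98), followed by *Syt11* for *Acta2* (0.95) and *Pdlim3* for *Tagln* (0.96). *Twist1* was nearest to *Dact3* (0.97) and *Col3a1* (0.97), and *Twist2* to *Mfap4* (0.996) and *Col1a1* (0.99). *Fn1* was nearest to *Fstl1* (0.95) and *Adamts10* (0.95), *Vim* to *Rab2a* (0.98) and *Anxa2* (0.98), and *Zeb1* to *Tnfaip1* (0.97) and *2010111I01Rik* (0.97). *Zeb2* had *Cyb5r4* and *4931406C07Rik* (both 0.95), *Snai1* had *2310022B05Rik* (0.96) and *Samd4* (0.95), and *Snai2* had *Rbms3* (0.96) and *Stk39* (0.95). Among the members themselves r was 0.94 for *Twist1* and *Twist2*, 0.90 for *Zeb1* and *Vim* and 0.89 for *Snai1* and *Snai2*, but −0.26 for *Zeb1* and *Zeb2* and −0.01 for *Twist1* and *Zeb1*. The 10 genes therefore did not follow 1 pattern over the clusters: *Twist1*, *Twist2*, *Acta2* and *Tagln* went with cluster 4, *Zeb1* and *Vim* with the endothelial clusters, and *Zeb2* with clusters 5 and 6.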

How the data were processed

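Single-cell RNA libraries (10x Genomics 3′ v3) of 3 pools were processed by the authors with Cell Ranger 3.1.0 on mm10 (GRCm38), with batch-effect removal when the libraries were joined. The authors deposited raw UMI counts of each cell by Ensembl identifier and a second table with the natural log of 1 plus counts per 10,000 UMIs, which differed from recomputed values by at most 5.3e-15 for the members. The submitters' processing notes also list Seurat 3.1.5. Another deposited table gives the Leiden cluster of each cell, and its map coordinates were not used. The gene annotation is not given in the sources used here, and names and positions were taken from GENCODE M21, which named 27,645 of 27,998 identifiers.

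The library suffix of a barcode is tied to no pool and no cell to a time point, so the matrix was treated as 1 sample, with no test, no replicate error and no P value. Depth ran from medians of 13,440.5 to 38,312 UMIs per cell over the libraries, and the intervals cover counting error only. The methods state a minimum of 5,000 UMIs, which 90 deposited cells lie below. Genes were called where the ratio of summed levels passed 2-fold with the same side in each library. A gene with no UMI was set to 3 UMIs in ratios. Shares were taken after thinning to 5,000 UMIs (seed 1). No doublet caller was run, and alternatives left out the deepest 5% of cells and cells with other marker lists. In simulated counts with Poisson error alone, all 200 genes changed by 4-fold or more were called among 10,438 in each comparison. Changes nearer 2-fold and differences in level between libraries were not simulated.

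The genes named are the members, list genes past 2-fold or among the 2 highest, and the 2 genes nearest to each member. The values of 1 list gene are not reported here. The members, lists and rules were chosen with earlier results of these data known. Promoters were from RefSeq (GRCm38.p6). Scripts ran in Python 3.11.15 with scipy 1.17.1, numpy 2.4.6, matplotlib 3.10.9 and pandas 2.3.3. Alternatives changed the averaging, depth, libraries, cells, fold and minimum level.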

Additional observations from a re-analysis of the deposited data

How the results depend on the processing

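The counts of members past 2-fold moved when the minimum mean level was 0.5 UMIs per 10,000, with 4, 5 and 4 members for clusters 0, 1 and 2 against cluster 4, 4 for cluster 0 against 2 and 5 for cluster 0 against 1, since fewer members were counted. With a 4-fold limit they were 4 for clusters 1 and 2 against cluster 4 and 3 for cluster 0 against cluster 2 and against cluster 1. For cluster 1 against cluster 2 the count was 3 at 1.5-fold, 2 without the pericyte and smooth muscle cells, and 1 to 3 when a library was left out (3 without suffix 1 and 2 without suffix 3). Against cluster 4, single calls of cluster 1 were lost for *Fn1* without suffix 1 (log2 −0.89), *Snai1* without suffix 3 (−0.90) and *Vim* with the mean over cells (0.99). No log2 ratio that was called changed sign in any alternative run. In cells as deposited, co-detection of a *Snai* or *Twist* and a contractile UMI was 16.1%, 2.13%, 4.34% and 36.7% in clusters 0, 1, 2 and 4. With at least 2 contractile UMIs it was 2.08%, 0.149% and 15.6% in clusters 0, 2 and 4. Leaving out libraries gave 0.367% to 0.712% in cluster 2. The log2 ratio of *Acta2* with and without *Tagln* was 3.32 to 4.26 in cluster 0 and 4.27 to 5.50 in cluster 2 with a library left out, 6.70 and 4.12 in clusters 1 and 2 as deposited, and 3.03 in cluster 1 without the pericyte and smooth muscle cells, which hold most of its *Acta2*. Of the 20 nearest genes, 13 were shared with a pseudocount of 0.01, 13 with 1 and 7 with a minimum level of 1. Among single values, 198 of 560 levels lay outside their counting interval, 42 of 600 log2 ratios changed their call and 161 of 420 shares moved. The cause was not tested. Depth limits *Snai2* and *Twist2*, with 1.39% and 0.139% of cells in cluster 0. No paired test across libraries was run, because the authors built the clusters on these same counts. The values within each library stand beside the pooled ones.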
